A study of Mus musculus with 12 samples.

Results

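The genes described here are the 10 rows of the count and FPKM tables named Cdkn1a, Cdkn1b, Cdkn2c, Cdkn2d, Cdkn3, Cdc25a, Cdc25b, Cdc25c, Wee1 and Pkmyt1, out of 54532 genes in those tables. They comprise 5 inhibitors of cyclin-dependent kinases (CDKs), 3 Cdc25 phosphatases and 2 Wee1 kinases. RNA-seq was performed on 12 libraries of bone marrow macrophages, 3 in each of 4 groups, which were treated with IgG or with anti-ITGA5, each without or with fibronectin. All groups came from Wild-type C57BL/6J mice of 2 to 3 months of age and shared the same culture, with CSF-1 at 12 ng/ml and then at 120 ng/ml in 15% serum. At confluence the cells received 10 µg/ml of a neutralizing antibody against ITGA5, the α5 subunit of the fibronectin receptor, or of control IgG for 24 h, on dishes with or without a fibronectin coat. The 10 genes were chosen by their family with their levels under the antibody in these libraries already known. For that reason the differences between antibody and IgG are given as a description, without p-values. Where one of the 10 genes is said to be called in that comparison, the call is a description too and no independent test. Tests are given for the fibronectin coating and for the interaction of antibody and coating.

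CDKs drive the cell cycle when bound to cyclins. Cdkn1a (p21) and Cdkn1b (p27) belong to the Cip/Kip inhibitors, which bind cyclin and CDK complexes. Cdkn2c (p18) and Cdkn2d (p19) belong to the INK4 inhibitors, which bind CDK4 and CDK6 and keep them from D-type cyclins. Cdkn3 encodes a phosphatase that removes the activating phosphate from CDK2 and CDK1. Wee1 and Pkmyt1 (Myt1) place inhibitory phosphates on CDK1, and the Cdc25 phosphatases remove them, so these enzymes set the time of entry into mitosis. Macrophages grown from marrow in CSF-1 can divide, and their inhibitors are part of how division stops as they mature.

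Levels are given as FPKM, fragments per kilobase of gene and per unit of library total, which corrects for gene length and allows genes to be compared. A log2 fold change is the fitted difference in counts, anti-ITGA5 over IgG or coated over uncoated, with its standard error (SE). A gene is said to be called when edgeR's adjusted p was at most 0.05. The libraries held 12954342 to 22075432 counts on genes. The chi-square per gene between replicates was 2.79 to 8.13 in 3 groups but 11.4 to 25.6 among the uncoated anti-ITGA5 libraries (a value near 1 would be counting error only). Replicate 2 of that group was the shallowest library, and in replicate 3 the highest FPKM was that of Gm23935 rather than Fth1, so values that rest on these libraries were also computed without each of them. Itga5 itself, whose RNA the antibody does not target, had a mean of 46.1 and 51.0 FPKM in IgG and anti-ITGA5 without fibronectin and of 46.9 and 49.4 with fibronectin, and it was not called in either antibody comparison. The study describes its replicates as biologically independent experiments, but neither it nor the labels say whether they came from separate mice. The p-values set a difference against the spread between these samples, which may not be the spread between mice. In RNA from a whole dish, more cells in a phase and more RNA per cell cannot be told apart.

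Promoter sequence was taken from a set of RefSeq promoters (GRCm38.p6), which matched 7 of the 10 genes. Cdc25c, Wee1 and Pkmyt1 had no match in the set used here. Windows of 200 bases were read, from 180 bases before the start to 20 after it, and searched on both strands for letters found in promoters of cell cycle genes. These were the cell cycle homology region (CHR, TTTGAA or TTCGAA), the CCAAT box (CCAAT, which overlaps none of the other letters) and an E2F site (TTTCGCGC, TTTCCCGC or TTTGGCGC). Of all 32851 windows of this length, 12.0% held TTTGAA, 0.919% TTCGAA, 29.2% CCAAT, 1.33% an E2F site and 3.87% a CHR of either spelling together with CCAAT. Below are the windows of Cdkn3 and Cdc25b, both higher under the antibody, of Cdc25a, which was not, and of the first start of Cdkn2c, which was higher and held none of the letters. Capitals mark the letters searched for; on the opposite strand CCAAT reads ATTGG and TTTGAA reads TTCAAA.
Cdkn3 (chr14:46760361-46760560, plus strand): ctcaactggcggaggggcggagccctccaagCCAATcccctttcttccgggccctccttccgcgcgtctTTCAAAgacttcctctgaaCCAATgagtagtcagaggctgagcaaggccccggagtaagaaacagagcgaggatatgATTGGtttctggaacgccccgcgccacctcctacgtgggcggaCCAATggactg
Cdc25b (chr2:131186768-131186967, plus strand): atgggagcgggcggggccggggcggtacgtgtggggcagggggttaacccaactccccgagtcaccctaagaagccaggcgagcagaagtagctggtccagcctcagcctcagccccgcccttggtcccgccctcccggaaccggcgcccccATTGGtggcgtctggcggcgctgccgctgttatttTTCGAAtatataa
Cdc25a (chr9:109875399-109875598, plus strand): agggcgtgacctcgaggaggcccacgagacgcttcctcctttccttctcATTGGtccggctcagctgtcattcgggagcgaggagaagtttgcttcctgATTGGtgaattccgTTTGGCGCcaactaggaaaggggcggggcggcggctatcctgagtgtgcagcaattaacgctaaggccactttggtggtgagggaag
Cdkn2c (chr4:109666737-109666936, minus strand): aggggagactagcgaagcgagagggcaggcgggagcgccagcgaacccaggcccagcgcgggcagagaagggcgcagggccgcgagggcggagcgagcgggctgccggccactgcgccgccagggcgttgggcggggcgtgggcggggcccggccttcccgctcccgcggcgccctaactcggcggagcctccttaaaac

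The Cdkn3 window held 4 CCAAT boxes and 1 CHR, which begins 111 bases before the start, and the Cdc25b window held a CCAAT box 28 bases before the start and TTCGAA beginning at base 8 after it. In Cdc25a there were 2 CCAAT boxes and TTTGGCGC, which begins 67 bases before the start, and no CHR. The Cdkn1b window held 2 CCAAT boxes, that of the second start of Cdkn2c held 1, and the windows of Cdkn1a (2 starts) and Cdkn2d held none of the letters. A match is a description of the letters in the window and no record of a bound factor.

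Among the Cip/Kip inhibitors, Cdkn1a (chr17:29090976-29100727) was by far the most abundant of the 10 genes. Without fibronectin its level was 143, 150 and 145 FPKM in IgG and 131, 111 and 138 FPKM in anti-ITGA5. With fibronectin it was 149, 156 and 147 FPKM in IgG and 132, 134 and 136 FPKM in anti-ITGA5. Every anti-ITGA5 library lay under every IgG library on the same coating, by a small margin. The log2 fold change was -0.20 (SE 0.070) without and -0.17 (SE 0.038) with fibronectin, and it was called lower with fibronectin only. Without fibronectin it also became lower by call when the anti-ITGA5 replicate 2 or 3 was left out (log2 fold change -0.12 and -0.27), with DESeq2 (-0.20) and in a fit over all 12 libraries (-0.20). Cdkn1b (chr6:134920401-134925513) was lower in level and was not called on either coating. Without fibronectin it stood at 9.51, 9.96 and 9.50 FPKM in IgG and at 9.03, 7.91 and 8.34 FPKM in anti-ITGA5, and with fibronectin at 8.83, 10.2 and 9.83 FPKM against 9.10, 9.03 and 7.36 FPKM. The groups were apart without fibronectin and overlapped with it. Its log2 fold changes were -0.19 (SE 0.063) and -0.18 (SE 0.085), and the second was -0.087 without anti-ITGA5 replicate 3.

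The INK4 inhibitors were more than 2-fold higher upon ITGA5 neutralization. Cdkn2c (chr4:109660876-109667189) stood without fibronectin at 15.6, 17.5 and 13.7 FPKM in IgG and at 39.0, 37.1 and 34.8 FPKM in anti-ITGA5. On fibronectin it was at 15.8, 19.4 and 14.4 FPKM in IgG and at 39.1, 45.6 and 32.0 FPKM in anti-ITGA5. No anti-ITGA5 library came near an IgG library, and the fold was 2.38 without and 2.35 with fibronectin (log2 fold change 1.25, SE 0.085, and 1.23, SE 0.12). Cdkn2d (chr9:21288410-21291407) followed closely. Its levels without fibronectin were 13.5, 15.8 and 13.5 FPKM in IgG and 31.7, 31.2 and 29.9 FPKM in anti-ITGA5, and those with fibronectin were 15.3, 16.6 and 13.7 FPKM and 34.6, 35.3 and 25.1 FPKM. The groups were again apart on both coatings, with folds of 2.17 and 2.08 (log2 fold change 1.12, SE 0.077, and 1.06, SE 0.12). Cdkn2c made up 52.2% ± 1.6 (SD, n = 3) of the sum of Cdkn2c and Cdkn2d in uncoated IgG libraries and 54.4% ± 0.71 in the anti-ITGA5 ones, a smaller shift than that of their levels.

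Cdkn3 (chr14:46760541-46771669), the phosphatase grouped with the inhibitors, went from the lowest level of the 10 genes in IgG to one close to that of Cdc25a in anti-ITGA5. Without fibronectin it was at 1.32, 1.62 and 0.842 FPKM in IgG and at 7.60, 7.07 and 5.57 FPKM in anti-ITGA5. With fibronectin it was at 1.42, 1.41 and 0.728 FPKM in IgG and at 6.52, 8.18 and 5.13 FPKM in anti-ITGA5. The lowest anti-ITGA5 library was above the highest IgG library on both coatings, while replicate 3 was the lowest within every group. The fold was 5.34 and 5.53 (log2 fold change 2.42, SE 0.20, and 2.47, SE 0.22). The SE was the widest of the 10 genes, and the IgG libraries held 32 to 73 counts on this gene. Its log2 fold change ranked 11 from the highest of 12924 genes tested without fibronectin and 4 of 12916 with it.

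Of the 3 Cdc25 phosphatases, Cdc25c and Cdc25b were called higher and Cdc25a was not called on either coating. Cdc25c, which acts at entry into mitosis, was the least abundant of them in IgG. Without fibronectin its level was 1.37, 1.72 and 1.32 FPKM in IgG and 6.81, 7.67 and 6.93 FPKM in anti-ITGA5, and with fibronectin 1.62, 1.35 and 1.06 FPKM in IgG and 7.51, 8.72 and 6.26 FPKM in anti-ITGA5. The groups were widely apart, at folds of 4.85 and 5.58 (log2 fold change 2.28, SE 0.14, and 2.48, SE 0.17), on 38 to 59 counts per IgG library. Its log2 fold change ranked 12 from the highest without fibronectin and 3 with it.

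Cdc25b (chr2:131186949-131198497), which activates CDK1 late in G2 phase, was the most abundant Cdc25 gene in every group. Without fibronectin it was at 14.3, 15.95 and 15.1 FPKM in IgG and at 24.7, 27.4 and 23.8 FPKM in anti-ITGA5. With fibronectin it was at 15.6, 18.1 and 14.3 FPKM in IgG and at 28.7, 32.3 and 23.8 FPKM in anti-ITGA5. All anti-ITGA5 libraries exceeded all IgG libraries of the same coating, and the fitted group folds were 1.68 and 1.76 (log2 fold change 0.75, SE 0.072, and 0.82, SE 0.10). Cdc25a (chr9:109875579-109893895), which acts on CDK2 at entry into S phase as well as on CDK1, hardly differed between the groups. It was at 6.03, 6.55 and 6.15 FPKM in IgG and at 6.62, 6.47 and 6.87 FPKM in anti-ITGA5 without fibronectin, and at 6.35, 6.73 and 6.03 FPKM and 7.09, 6.35 and 6.23 FPKM with it. The IgG and anti-ITGA5 libraries overlapped on both coatings, and the log2 fold changes of 0.10 (SE 0.058) and 0.04 (SE 0.065) were not called. The second of these fell to -0.02 and -0.0035 without anti-ITGA5 replicate 1 and IgG replicate 3 with fibronectin.

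The kinases that oppose the Cdc25 phosphatases were also higher, by smaller folds than Cdc25b and Cdc25c. Wee1 (chr7:110122046-110143286), a nuclear kinase, stood without fibronectin at 13.3, 13.2 and 12.3 FPKM in IgG and at 17.2, 17.1 and 16.4 FPKM in anti-ITGA5. With fibronectin it stood at 12.0, 12.6 and 12.0 FPKM in IgG and at 18.01, 17.98 and 15.9 FPKM in anti-ITGA5. Its groups were apart on both coatings, at folds of 1.31 and 1.42 (log2 fold change 0.39, SE 0.059, and 0.51, SE 0.062). Pkmyt1 (chr17:23726336-23736735), which is bound to membranes of the endoplasmic reticulum and Golgi, was less abundant than Wee1. Without fibronectin it was at 6.05, 6.44 and 5.98 FPKM in IgG and at 8.37, 9.49 and 8.35 FPKM in anti-ITGA5, and with fibronectin at 5.98, 6.75 and 5.85 FPKM and 8.39, 9.54 and 7.82 FPKM. Again the groups did not overlap, and the folds were 1.42 and 1.38 (log2 fold change 0.51, SE 0.080, and 0.47, SE 0.088).

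**Figure D1:**
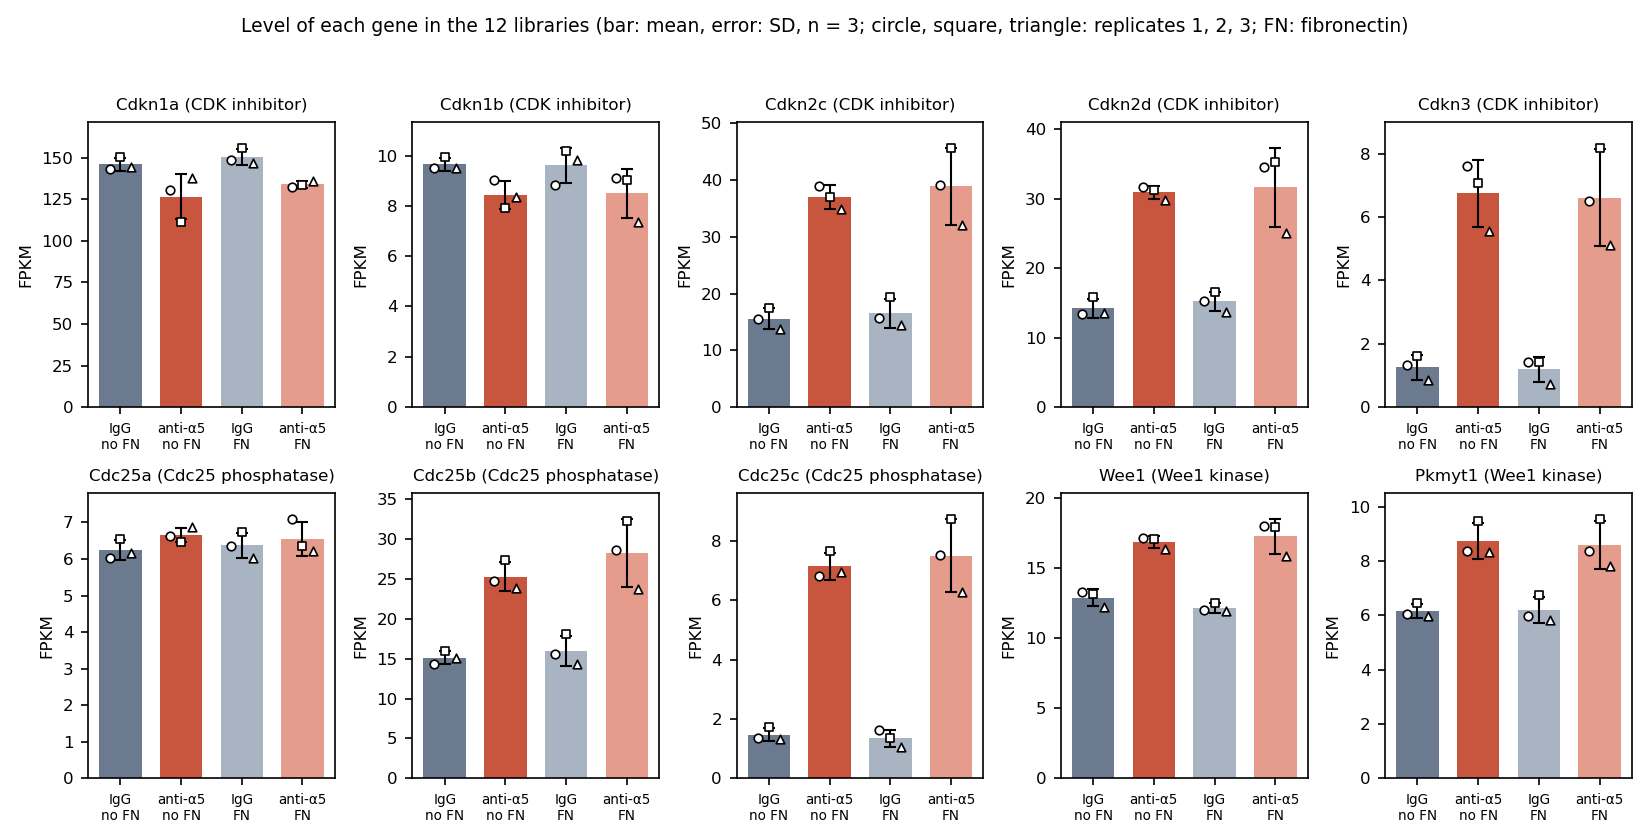
FPKM (vertical axes, each from 0) of the 10 genes in the 12 libraries, with group means as bars and SD as error bars (n = 3) and each replicate as its own symbol; FN stands for fibronectin and anti-α5 for anti-ITGA5. In Cdkn2c, Cdkn2d, Cdkn3, Cdc25b, Cdc25c, Wee1 and Pkmyt1 every anti-ITGA5 library stands above the IgG libraries of the same coating, in Cdkn1a every one stands below them, and in Cdc25a they overlap. The share of all genes whose groups stand apart in this way was not counted, so nothing is read from how many of the 10 do.

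In all, 7 of the 10 genes were called higher and 3 (Cdkn1a, Cdkn1b and Cdc25a) were not called without fibronectin, where 20.8% of all genes tested were called in either direction. That share was lower without IgG replicate 1 (11%), 2 (13.5%) or 3 (11.8%) or anti-ITGA5 replicate 1 (13.1%), and reached 29.1% without anti-ITGA5 replicate 2. With fibronectin 7 were called higher, 1 (Cdkn1a) lower and 2 (Cdkn1b and Cdc25a) were not called, where 27.6% of all genes tested were called. The 7 higher genes were the same on both coatings. The median log2 fold change over the 10 genes was 0.63 and 0.66, and over all genes tested 0.0090 and -0.0038. Since the genes were chosen with these values known, nothing is read from their count. Leaving out anti-ITGA5 replicate 2 or 3 without fibronectin gave 8 called genes in place of 7, Cdkn1a being the added one.

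**Figure D2:**
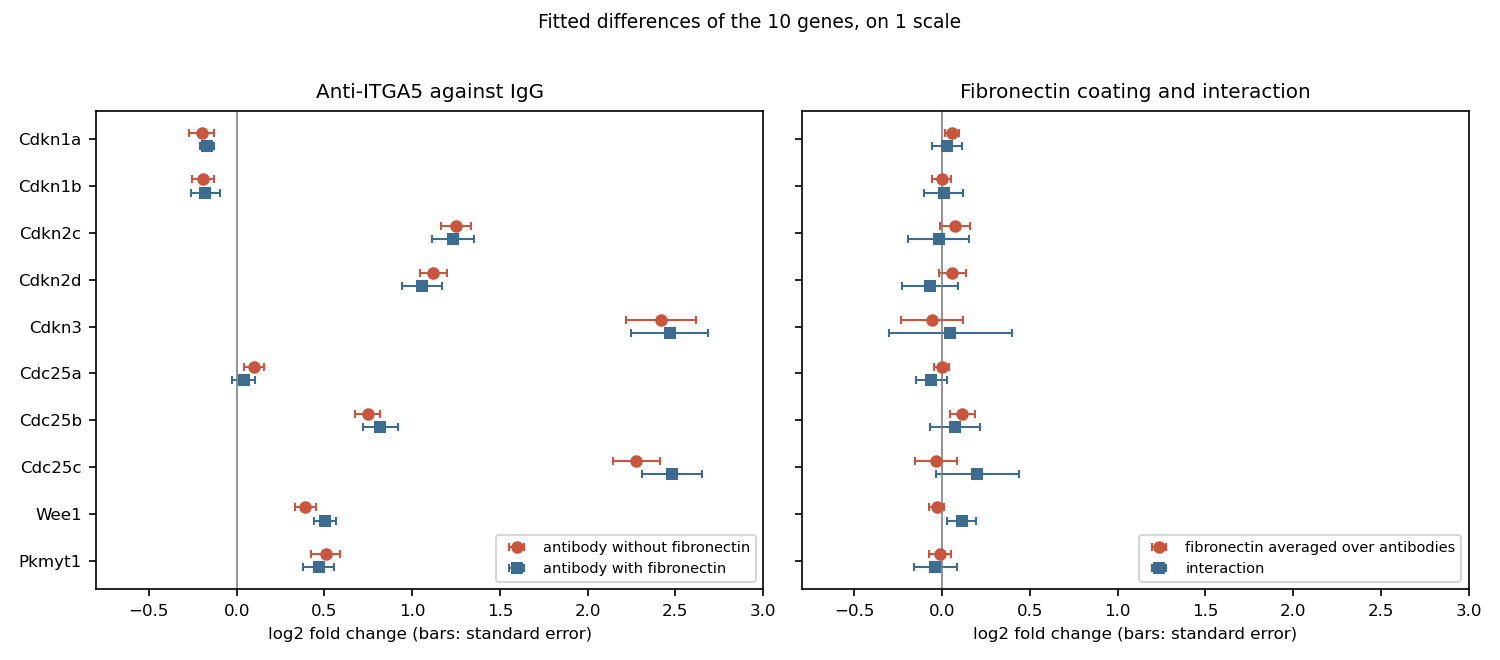
Log2 fold changes (horizontal axes, the same scale in both panels) with SE bars for the 10 genes: anti-ITGA5 against IgG on each coating on the left, the effect of fibronectin averaged over both antibodies and the interaction on the right. Antibody values reach from -0.20 to 2.48, while coating values lie between -0.06 and 0.11 and interaction values between -0.07 and 0.20.

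The makeup of the families differed between IgG and anti-ITGA5. Cdkn1a made up 78.2% ± 1.2 (SD, n = 3) of the summed FPKM of the 5 inhibitors in IgG and 60.3% ± 3.2 in anti-ITGA5 without fibronectin, and 78.0% ± 1.3 and 61.2% ± 4.5 with fibronectin. The sum itself was 187 ± 7.3 and 210 ± 13 FPKM without and 193 ± 9.4 and 220 ± 13 FPKM with fibronectin, so a lower Cdkn1a and higher INK4 genes partly offset each other in it. The ratio of INK4 to Cip/Kip FPKM was 0.192 ± 0.016 in IgG and 0.507 ± 0.065 in anti-ITGA5 without fibronectin, and 0.198 ± 0.018 and 0.495 ± 0.088 with it. In the Cdc25 family, Cdc25c made up 6.42% ± 0.63 of the sum in IgG and 18.2% ± 0.35 in anti-ITGA5 without fibronectin, and 5.66% ± 1.1 and 17.7% ± 0.63 with it. Cdc25a had a smaller share in anti-ITGA5, at 17.1% ± 1.4 against 27.3% ± 0.38 in IgG without and 15.7% ± 2.0 against 27.0% ± 1.2 with fibronectin, while Cdc25b stayed between 64.7% and 67.4% in the group means. Between the kinases the split was similar in all groups, with Wee1 at 65.9% to 67.7% in the group means. The summed Cdc25 FPKM over that of Wee1 and Pkmyt1 was 1.20 ± 0.067 in IgG and 1.53 ± 0.035 in anti-ITGA5 without fibronectin, and 1.29 ± 0.078 and 1.63 ± 0.095 with it. The IgG and anti-ITGA5 libraries did not overlap in this ratio on either coating.

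**Figure D3:**
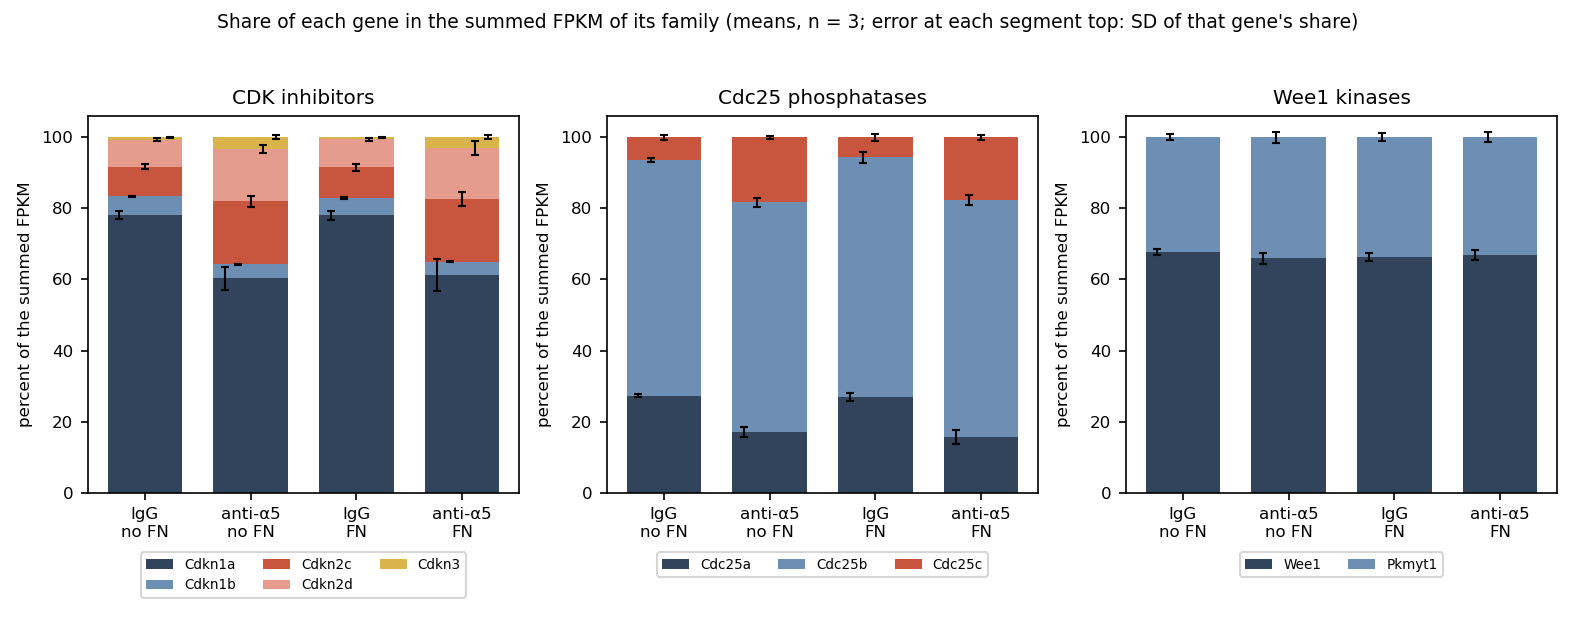
Share of each gene in the summed FPKM of its family (vertical axes, percent) in the 4 groups, as means of 3 libraries with the SD of each gene's share at the top of its segment. The Cdkn1a segment reaches 78.2% and 78.0% in IgG and 60.3% and 61.2% in anti-ITGA5, the Cdc25c segment grows from 6.42% and 5.66% to 18.2% and 17.7%, and the Wee1 to Pkmyt1 split stays near the same level.

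The order of the levels shifted accordingly. In IgG without fibronectin the order of the mean FPKM was Cdkn1a, Cdkn2c, Cdc25b, Cdkn2d, Wee1, Cdkn1b, Cdc25a, Pkmyt1, Cdc25c and Cdkn3. Libraries overlapped between the neighbours Cdkn2c and Cdc25b, Cdc25b and Cdkn2d, Cdc25a and Pkmyt1, and Cdc25c and Cdkn3, and the same order and the same overlaps were found in IgG with fibronectin. In anti-ITGA5 without fibronectin the order was Cdkn1a, Cdkn2c, Cdkn2d, Cdc25b, Wee1, Pkmyt1, Cdkn1b, Cdc25c, Cdkn3 and Cdc25a. There Cdkn1a was 127 ± 14 FPKM (SD, n = 3) and Cdkn2c 37.0 ± 2.1 FPKM, Pkmyt1 overlapped with Cdkn1b, Cdkn1b was apart from Cdc25c, and the last 3 genes, at 7.14 ± 0.46, 6.75 ± 1.1 and 6.65 ± 0.20 FPKM, overlapped with each other from neighbour to neighbour. Anti-ITGA5 with fibronectin had the same order, with more overlaps: Cdkn2c with Cdkn2d, Cdkn2d with Cdc25b, and each neighbouring pair from Pkmyt1 to Cdc25a.

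The fibronectin coating was not called for any of the 10 genes. Under IgG 0 of 10 were called by edgeR, 0 by DESeq2 and 0 had an unadjusted p under 0.05, where 0.449% of all genes tested were called. That share ran from 0.0681% without the uncoated replicate 1 to 0.766% without the coated replicate 2, and DESeq2 called 128 genes. The log2 fold changes lay between -0.14 (Cdc25c, SE 0.21, edgeR adjusted p = 0.89) and 0.09 (Cdkn2d, SE 0.089, adjusted p = 0.81). The value of Cdc25c ran from -0.29 without the coated replicate 1 to 0.0020 without the coated replicate 3, and that of Cdkn2d from 0.03 without the coated replicate 2 to 0.17 without the uncoated replicate 2. In anti-ITGA5 0 of 10 were called by edgeR, 0 by DESeq2 and 0 had an unadjusted p under 0.05. Of all genes tested there 0% were called, with 461 at an unadjusted p under 0.05 and 5 called by DESeq2. The log2 fold changes in anti-ITGA5 lay between -0.04 (Cdc25a, SE 0.065, adjusted p = 0.98) and 0.14 (Cdc25b, SE 0.10, adjusted p = 0.98). These values depended on single libraries. The value of Cdc25a ran from -0.09 without the coated replicate 1 to -0.0048 without the coated replicate 3, and that of Cdc25b from 0.04 without the coated replicate 2 to 0.25 without the coated replicate 3. Coated and uncoated libraries overlapped for all 10 genes under both antibodies. The share of all genes with such an overlap was not counted, so nothing is read from this.

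Averaged over both antibodies on 12 libraries, coating gave 0 calls among the 10 genes with edgeR and with DESeq2, and 0 unadjusted p under 0.05, where 0.178% of all genes tested were called. DESeq2 called 90 of all genes there, and the share was 0.0937% to 0.226% when single libraries were left out, lowest without IgG replicate 3 with fibronectin. The lowest value was that of Cdkn3 (log2 fold change -0.06, SE 0.18, adjusted p = 0.95) and the highest that of Cdc25b (0.11, SE 0.071, adjusted p = 0.63). The interaction asks whether the antibody difference depends on the coating, and it was called for 0 of the 10 genes by edgeR and by DESeq2, with 0 at an unadjusted p under 0.05, where 0.0223% of all genes tested were called (3 genes, 4 with DESeq2, and 1 to 6 when single libraries were left out). It lay between -0.07 (Cdkn2d, SE 0.16) and 0.20 (Cdc25c, SE 0.24) on the log2 scale, with an adjusted p of 0.9997 for both. The SE was 0.35 for Cdkn3, so for this gene and Cdc25c a moderate dependence on coating could not be detected within the spread of these libraries.

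The libraries of a group also differed among themselves. Deviations of each library from its group mean were compared with those of the mean of 25 G2 and M phase genes on the log2 CPM scale (counts scaled to library size). The list mean was highest in replicate 2 and lowest in replicate 3 of each group, with deviations of 0.11 to 0.24 and of -0.14 to -0.27. Replicate 3 was also the lowest in all 4 groups for Cdkn2c, Cdkn3, Wee1 and Pkmyt1, in 3 groups for Cdkn2d, Cdc25b and Cdc25c, in 2 groups for Cdkn1b and Cdc25a and in 1 group for Cdkn1a. Cdkn2c deviated by 0.17 and 0.24 in replicate 2 and by -0.18 and -0.19 in replicate 3 of IgG without and with fibronectin. For Cdkn3 those deviations were 0.40, 0.30, -0.51 and -0.61, the widest of the 10 genes. As a description over 12 libraries, which share depth and scaling, Pearson's r of these deviations with the list mean was 0.96 for Cdkn2c, 0.91 for Cdkn2d, 0.89 for Wee1, 0.88 for Cdkn3, 0.87 for Cdc25b, 0.83 for Pkmyt1 and 0.75 for Cdc25c. It was 0.59 for Cdkn1b, 0.57 for Cdc25a and -0.097 for Cdkn1a. With the mean of 25 S phase genes in its place, r was 0.91 for Cdkn2c, 0.87 for Cdkn2d, 0.73 for Wee1, 0.93 for Cdkn3, 0.74 for Cdc25b, 0.61 for Pkmyt1 and 0.80 for Cdc25c, which is higher than with G2 and M phase for Cdkn3 and Cdc25c. For Cdkn1b, Cdc25a and Cdkn1a it was 0.52, 0.62 and 0.19. Nothing is read from these values about either phase.

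**Figure D4:**
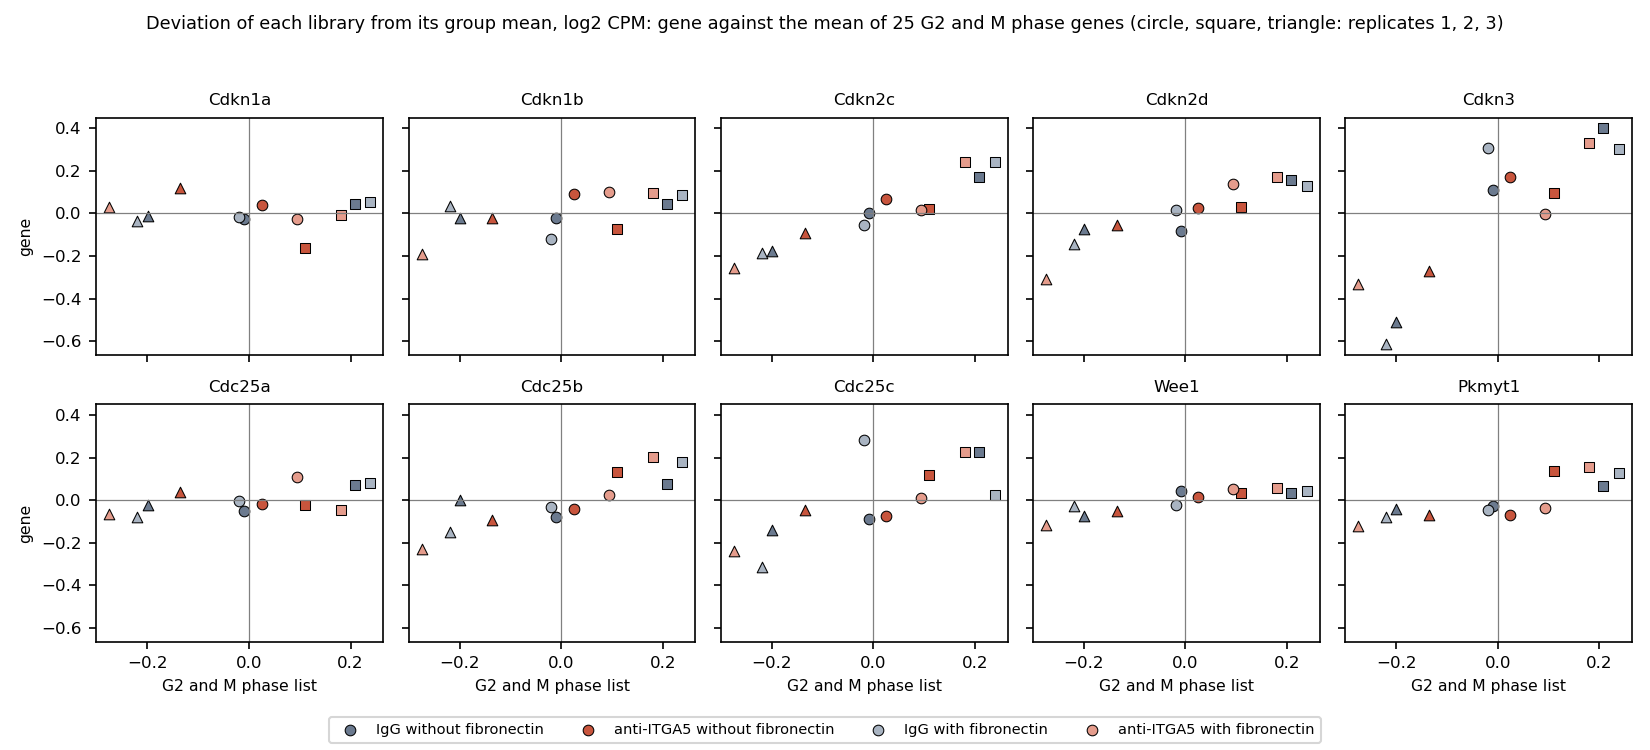
Deviation of each of the 12 libraries from its group mean in log2 CPM, for each of the 10 genes (vertical axes) against the mean of 25 G2 and M phase genes (horizontal axes), with colors for groups and symbols for replicates. Triangles (replicate 3) sit at the left and squares (replicate 2) at the right, from -0.27 to 0.24, and Cdkn2c rises along that axis while Cdkn1a shows no such slope.

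The 2 genes most like each of the 10 were found by Pearson's r of log2 CPM over the 12 libraries, among 13445 genes. Since the groups differ by antibody, r was also computed on the deviations from group means, given in second place. Cdkn2c was most like Tmpo (0.998, 0.979) and Racgap1 (0.997, 0.976), and Cdkn2d most like Birc5 (0.996, 0.953) and Incenp (0.995, 0.936). For Cdc25b they were Ccnf (0.991, 0.984) and Kifc1 (0.991, 0.931), and for Cdc25c Aurka (0.995, 0.856) and Cdc20 (0.994, 0.747). Wee1 was paired with Trip13 (0.993, 0.887) and Kif18a (0.992, 0.903), and Pkmyt1 with Trim37 (0.989, 0.924) and Depdc1b (0.987, 0.910). Cdkn3 had Spag5 (0.994, 0.909) and the chemokine gene Ccl4 (0.993, 0.939) nearest to it. The other 3 genes had other neighbours: Psenen (0.967, 0.923) and Rala (0.964, 0.900) for Cdkn1a, Dio2 (0.931, 0.884) and Epas1 (0.916, 0.858) for Cdkn1b, and Fam92a (0.944, 0.943) and 3300005D01Rik (0.872, 0.918) for Cdc25a.

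The remaining genes of the pathway were described by lists. Of 25 G2 and M phase genes, 25 were called higher on each coating, with log2 fold changes of 1.03 to 2.15 and 1.04 to 2.44 and a median of 1.43 and 1.42. The largest was that of Ube2c, a ubiquitin-conjugating enzyme of mitotic exit (2.15, SE 0.092, and 2.44, SE 0.19). Higher calls were made for 11% and 14.4% of all genes tested, and lower calls for 9.79% and 13.2%. The summed FPKM of the G2 and M phase genes was 196 to 257 in IgG and 545 to 648 in anti-ITGA5 without fibronectin. With fibronectin it was 192 to 264 and 505 to 686. The list was chosen with earlier results of these data known, so nothing is read from its count of calls. Cdkn3 and Cdc25c exceeded the median of this list, and Cdkn2c and Cdkn2d lay under it. Cdc25b, Wee1 and Pkmyt1 lay under the lowest gene of the list on both coatings. Of 25 S phase genes 9 and 6 were called higher and the others were not called, at a median of 0.12 and 0.10, the largest being Tyms, thymidylate synthase (0.75, SE 0.075, and 0.69, SE 0.090). That count depended on single libraries. Without fibronectin it was 4 without IgG replicate 1, IgG replicate 3 or anti-ITGA5 replicate 1, and with fibronectin 4 without IgG replicate 3 and 10 without anti-ITGA5 replicate 3.

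Among 15 cyclins and CDKs, 6 were called higher and 1 (Ccne1) lower without fibronectin, at a median of 0.22, and 7 higher with it, at a median of 0.13. The largest difference was in Ccnb2, a mitotic partner of CDK1 (2.06, SE 0.16, and 2.17, SE 0.17). Without fibronectin 4 were higher when IgG replicate 2, IgG replicate 3 or anti-ITGA5 replicate 1 was left out. Of 25 genes that act on the 10 proteins, such as checkpoint kinases, ubiquitin ligase subunits and 14-3-3 proteins, 12 were called higher and 1 (Ywhab) lower without fibronectin (median 0.18) and 14 higher and 1 (Ywhag) lower with it (median 0.26). Plk1, the mitotic kinase that marks Wee1 for destruction and activates Cdc25 phosphatases, led them (2.18, SE 0.11, and 2.27, SE 0.17). Of the 3 inhibitors outside the 10 genes, Cdkn2a had 2 to 5 counts in IgG and 9 to 16 in anti-ITGA5 without fibronectin, where it passed the filter only through the group in which it is high, so nothing is read from its call. With fibronectin it had 2 to 6 and 6 to 11 counts and did not pass the filter. Cdkn1c was called lower with fibronectin (-0.67, SE 0.23), on 25 to 50 counts, and Cdkn2b was not called.

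Cdkn1a is a classic target of p53, and 20 other p53 targets could be tested. Of these 6 were called lower without and 12 with fibronectin and the others were not called, at a median log2 fold change of -0.25 on both. Trp53inp1, which promotes p53 activity, had the largest difference without fibronectin (-1.19, SE 0.088) and was at -1.10 (SE 0.078) with it. Among the 12 is Eda2r, a death domain receptor, on 18 to 37 counts in IgG and 6 to 10 in anti-ITGA5 with fibronectin. It passed the filter through the group where it is high, so nothing is read from its call. The lower count was 4 without IgG replicate 1 on uncoated dishes and 8 without IgG replicate 2 on fibronectin. Cdkn1a, at -0.20 and -0.17, lay nearer to 0 than the median of these genes.

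**Figure D5:**
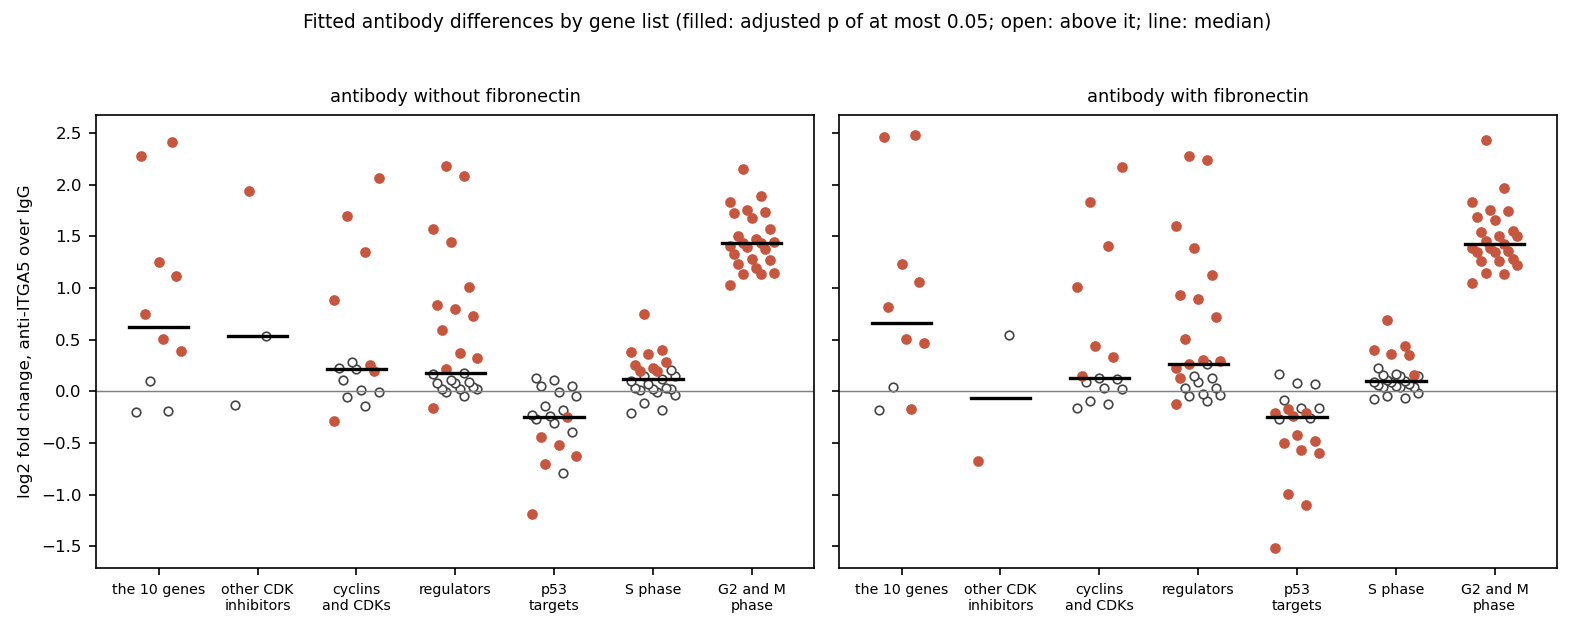
Log2 fold changes of anti-ITGA5 over IgG (vertical axis) for the 10 genes and for 6 lists of pathway genes, without fibronectin on the left and with it on the right; filled points were called, open points were not, and lines are medians. The G2 and M phase points all lie at 1.03 or above, most S phase points lie near 0, and most p53 targets lie below 0.

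Macrophage markers did not move in 1 direction under the antibody. Of 8 markers, 1 (Cd14) was called higher and 4 (Cd68, Itgam, Mertk and Lyz2) lower on each coating, and Csf1r, Adgre1 and Fcgr1 were not called. The summed FPKM of the 8 markers, most of it Lyz2, was 8977 to 9822 in IgG and 6129 to 7517 in anti-ITGA5 without fibronectin and 9558 to 9759 and 7337 to 7506 with it. Markers of other cells summed to at most 0.447 FPKM for fibroblasts, 4.53 for neutrophils, 0.481 for lymphocytes, 1.08 for progenitors and 3.04 for endothelial cells, and Cd3g was at 0 in every library. Of these markers Cd34 (progenitors) and Mpo (neutrophil precursors) were called lower with fibronectin, and the others tested were not called. Mpo had 18 to 21 counts in IgG and 9 to 11 in anti-ITGA5 with fibronectin. Mpo passed the filter through the group where it is high, so nothing is read from its call. The part of these differences in the levels of the 10 genes was not tested. Several of the genes overlap another gene: Paqr4 overlaps Pkmyt1 on the opposite strand with 238 to 428 counts, Spef1 overlaps Cdc25b (90 to 181), and AC167363.2, 1600010M07Rik and Gm3550 overlap Cdkn1a, Wee1 and Cdc25c with at most 62 counts. Whether counting used the strand is not given in the sources used here, so reads of such pairs may not be told apart.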

How the data were processed

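RNA was measured in 12 libraries of bone marrow macrophages (oligo(dT) enrichment, paired-end reads). Per the labels and the study's methods, the authors aligned reads with TopHat2 2.0.9 to GRCm38.p6, ran Cufflinks 2.1.1 and counted reads per gene with HTSeq 0.6.1. The authors deposited 1 table of unnormalized counts per gene and 1 table of FPKM, the counts divided by gene length and 1 total per library. Strand and annotation release are not given in the sources used here, and overlapping genes can share reads. Counts were tested with edgeR 4.0.16 (R 4.3.3; filterByExpr, TMM, quasi-likelihood test, Benjamini-Hochberg adjustment over all genes tested), on the 6 libraries of each comparison, or on all 12 for the coating effect averaged over antibodies and the interaction. DESeq2 1.42.0 and limma 3.58.1 served as alternatives. The SE is the size of the log2 fold change over the square root of F. Where several IDs had 1 symbol, the most abundant ID was taken. The script was tested on simulated data. The 10 genes and all lists were chosen with earlier results of these data known. Named from outside the 10 are, for each, the 2 genes of highest r over the libraries, from each list the gene of largest difference, and Itga5. Cell type markers, genes that overlap the 10 and the genes of highest FPKM in a library are named as well. Genes named for a count of 5 or fewer were chosen after their values were seen.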

Additional observations from a re-analysis of the deposited data

How the results depend on the processing

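Alternatives were DESeq2, scaling by its size factors or by total counts, no filter, at least 10 counts in every library, an adjusted p of at most 0.01, all 12 libraries, the replicate block, each library left out in turn, and limma on log2(FPKM + 1 or 0.1) with a minimum of 0.5 FPKM or none. The number of the 10 genes called stayed at 7 or 8 without and 8 or 9 with fibronectin, and at 0 for coating and interaction. Of the 20 antibody values of the 10 genes, 17 kept direction and call under all alternatives. The others were Cdkn1a without fibronectin, called in 4 of 16 alternatives, Cdkn1b with fibronectin, and Cdc25a with fibronectin, which lay between -0.019 and 0.076 when single libraries were left out. Of the 40 coating and interaction values 27 changed sign under at least 1 alternative, and 0 were called. When single libraries were left out, the coating effect on Cdc25c in IgG ran from -0.29 to 0.0020, that on Cdkn3 averaged over antibodies from -0.16 to 0.068, and the interaction of Cdkn2d from -0.15 to 0.081. The cause was not tested. The count of S phase genes was 6 with no filter on uncoated dishes, and 9 with total counts, 10 with no filter and 12 under the block on fibronectin. Total counts moved the median of all genes by at most 0.05.

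Replicate numbers are shared across groups. Deviations of same-numbered libraries correlated at -0.020 to 0.149, not above 0.1 in every pair, so the numbers were not taken to pair samples. Outside the comparison of the anti-ITGA5 groups with each other, same-numbered values were all positive, at 0.032 to 0.149. Values of libraries with different numbers ran there from -0.10 to 0.0048. Whether same-numbered libraries share a source was not tested, and the main fits hold no term for it. With the replicate block 7 genes were called without and 9 with fibronectin, Cdkn1b being added at -0.18. Coating was called for 3.22% of all genes in IgG and 0.684% averaged over antibodies under the block.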
